A study of Mus musculus with 4 samples.

Results

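*Bmal1* (listed as *Arntl*), *Arntl2*, *Clock*, *Npas2*, *Rev-erb-alpha* (listed as *Nr1d1*), *Rev-erb-beta* (listed as *Nr1d2*) and *Rora* were described on 4 one-color Agilent arrays of cOS-pulsed fibroblasts. The members were all probes that carry one of these 7 gene names in the array annotation, which gave 11 of the 39429 probes, and 7 of the 30175 distinct names. RNA came from NIH-3T3:Per2-Luc, an immortalized mouse fibroblast line harboring a *Per2* promoter-driven luciferase, which all 4 cultures shared. The control received 0 mM H2O2 and fresh medium and is labelled 4 h. The other cultures were given a critical oxidative stress pulse (cOS-pulse), 5 mM H2O2 for 10 min, and taken at 4 h, 20 h and 32 h. Each condition had 1 array, all on 1 slide, so no test was run, no p-value is given, and culture, array and condition cannot be told apart. Every time point was set against the same control array, so the 3 ratios to the control share its error. At 20 h and 32 h, the pulse and the time since the medium was changed cannot be told apart in a ratio to a control labelled 4 h.

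BMAL1 pairs with CLOCK, or with its relative NPAS2, through bHLH-PAS domains. The pair binds E-boxes and activates the *Per* and *Cry* repressors, the *Rev-erb* genes and output genes such as *Dbp*. REV-ERB proteins are nuclear receptors that repress, and ROR proteins are nuclear receptors that activate, through the same ROR elements, of which those at *Bmal1* are the best known. *Bmal1* RNA therefore cycles roughly opposite to *Rev-erb* and *Dbp* RNA in many tissues. ARNTL2 is a paralog of BMAL1 that can also pair with CLOCK.

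The ROR elements are the reason to show the start of *Bmal1*. In the 10 promoters of the 7 genes given by RefSeq (GRCm38.p6, 250 bases before to 50 after each start), the letters TAGGTNA, searched on both strands, were found only at *Bmal1*, in both of its promoters. Of all 32851 promoters of this length, 8.29% hold these letters. The matches at *Bmal1* lie on the strand of the gene, with their first bases 36 bases apart. Its annotated starts lie 46 bases apart, and the match TAGGTTA begins 6 bases before the downstream one. The match TAGGTCA begins at base 31 from it, with the start counted as base 1. Capitals mark the match in both pieces.
Upstream match, chr7:113207494-113207523: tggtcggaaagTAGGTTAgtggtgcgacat
Downstream match, chr7:113207530-113207559: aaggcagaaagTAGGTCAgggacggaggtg
No member promoter held the E-box CACGTG (7.15% of all promoters), the D-box TTATGTAA (0.938%) or the inverted heat shock unit GAANNTTC (7.86%). The letters TGACNNNGC of the antioxidant element (12.4% of all promoters) were found once, at *Nr1d2* and on the strand opposite to it. These windows are short, and a match or its absence says nothing of binding.

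The probes are 60 bases long, and those of *Arntl2* and *Rora* are shown because probes of one gene gave different readings. Each line gives 30 bases, and capitals mark bases covered by a run of 12 bases that also occurs in at least 5 probes of other genes.
Bmal1, A_55_P2408588, bases 15 to 44: agtcaatctACCATGTGTAACttcagacaa
Arntl2, A_55_P2114796, bases 1 to 30: tcttcatccccagaagatgcaagcccttca
Arntl2, A_55_P1977658, bases 1 to 30: ttgatgtcctgtgtgacagtgacagcatag
Arntl2, A_55_P2114799, bases 30 to 59: cGAAACCCTGTCTTTTAAAATAAATAAAAa
Rora, A_55_P2078123, bases 1 to 30: gcgcccgagcacttctagaacatctggagt
Rora, A_55_P2068006, bases 1 to 30: tagttttcagtcaggaaaccagtggatgat
*Arntl2* probe A_55_P2114799 shared a run of 12 bases with 56 probes of other genes, against 2 to 17 for each of the other 10 member probes.

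Of the 11 probes, 7 (of 6 genes) were well above background on all 4 arrays by the flag of the scanner software, and 4 were so on none. The 4 were the probe of *Npas2*, *Arntl2* probes A_55_P2114796 and A_55_P1977658, and *Rora* probe A_55_P2068006. Their scaled levels lay between -7.43 and -5.68, below the lowest level well above background on the same array in every case (-5.11 to -4.73). A scaled level is the log2 signal minus the 75th percentile of all probes on that array. No ratio was taken for these probes.

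**Figure D1:**
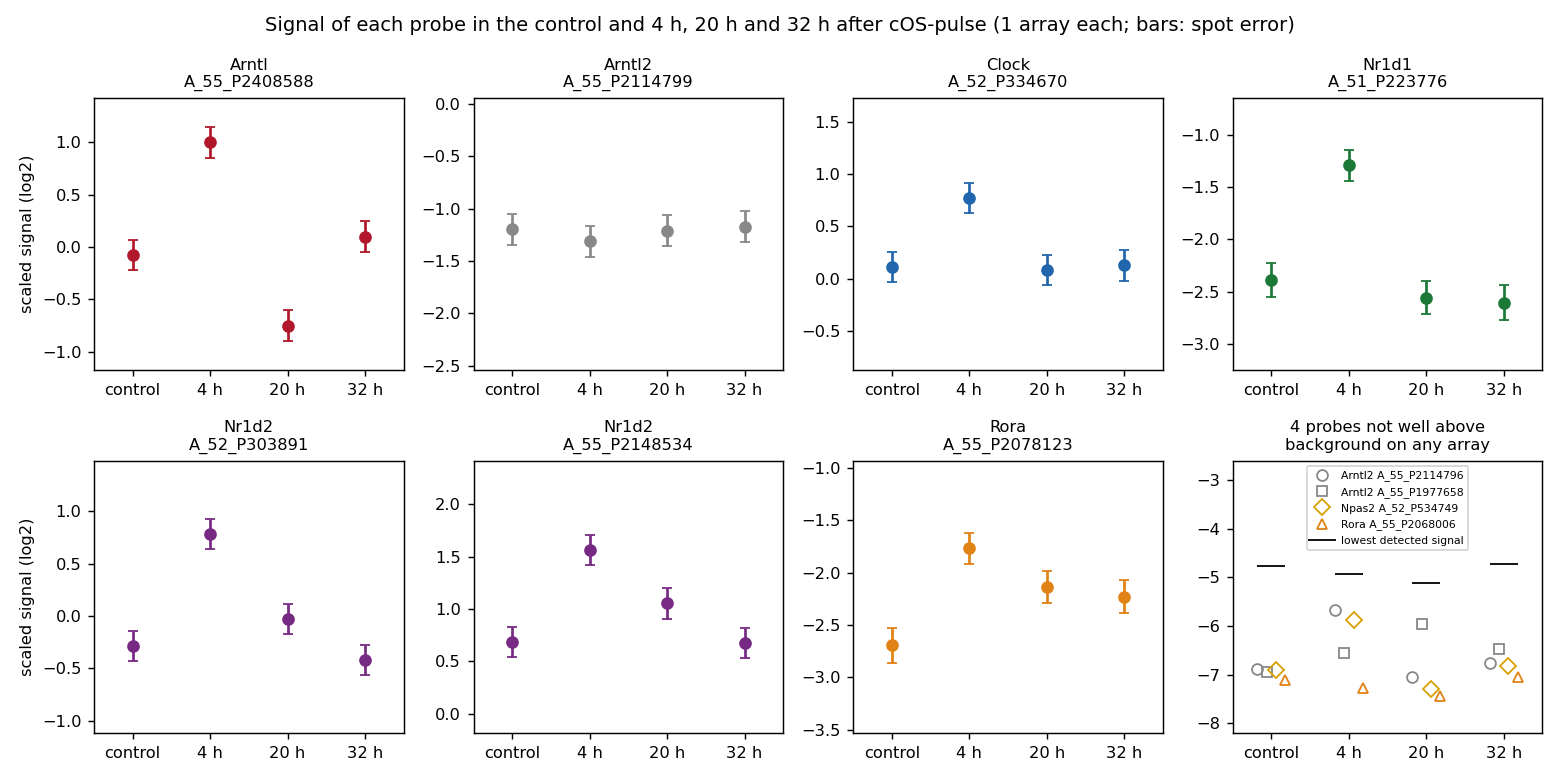
Scaled signal (log2) of each member probe on the control array and on those taken 4 h, 20 h and 32 h post cOS-pulse, with 1 array per condition and bars for the spot error of the scanner software; each panel of a detected probe spans the same log2 range. *Bmal1* was highest at 4 h and lowest at 20 h, *Clock*, *Nr1d1* and both *Nr1d2* probes were highest at 4 h, and the last panel holds the 4 probes not well above background, all under the lowest detected signal of their array.

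*Bmal1*, the common partner of CLOCK and NPAS2, had the widest range of the members. Its probe (mm9, chr7:120457261-120457320, plus strand) gave a signal of 1051 in the control, 1822 at 4 h, 829 at 20 h and 1343 at 32 h. On the scaled log2 axis these were -0.08, 0.999, -0.75 and 0.10. The level was thus high at 4 h, low at 20 h, and back near the control at 32 h, with 1.75 ± 0.20 between the highest and the lowest array (± gives the spot error of the scanner software, which does not cover differences between cultures). The arrays at 32 h and of the control differed by 0.18 ± 0.20, less than 2 spot errors, while the other neighbors in this order differed by more. Fewer cells of a type and less RNA per cell cannot be told apart in these cultures.

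*Clock*, the partner of *Bmal1*, was less variable. Its probe (chr5:76641377-76641436, minus strand) had scaled levels of 0.11 in the control, 0.77 at 4 h, 0.08 at 20 h and 0.13 at 32 h. On this scale only the 4 h array stood apart, by 0.64 ± 0.20 from the next. The control and the arrays at 20 h and 32 h lay within 2 spot errors of each other.

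*Nr1d1*, a repressor of *Bmal1*, was read by 1 probe whose 60 bases span 503 bases of the genome (chr11:98630526-98631028, minus strand). Its scaled levels were -2.39 in the control, -1.29 at 4 h, -2.56 at 20 h and -2.61 at 32 h. It too stood apart at 4 h only, with 1.31 ± 0.22 between the highest and the lowest array.

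*Nr1d2*, the other *Rev-erb* gene, had 2 probes (chr14:19037253-19037312 and chr14:19036568-19036627, minus strand). Probe A_52_P303891 had scaled levels of -0.29 in the control, 0.78 at 4 h, -0.03 at 20 h and -0.42 at 32 h. Probe A_55_P2148534 had 0.68, 1.56, 1.05 and 0.67. Both gave the order 4 h, 20 h, control and 32 h, and only the step from 4 h to 20 h exceeded 2 spot errors.

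*Rora*, an activator at ROR elements, had its detected probe (A_55_P2078123, chr9:69226774-69226833, plus strand) at -2.69 in the control, -1.77 at 4 h, -2.14 at 20 h and -2.23 at 32 h. All 3 pulsed cultures were above the control. The lowest of them, at 32 h, was 0.46 ± 0.23 above it, only just more than 2 spot errors. Among the pulsed cultures, 4 h and 32 h differed by 0.46 ± 0.22, also more than 2 spot errors, while 20 h differed from neither by that much.

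*Arntl2* probe A_55_P2114799 (chr6:146781976-146782035, plus strand), the one rich in runs shared with other probes, had scaled levels of -1.20, -1.31, -1.21 and -1.17. No neighbors in this order differed by more than 2 spot errors, and the whole range was 0.14 ± 0.21. The other 2 probes of *Arntl2* were not well above background on any array. Whether the shared runs bear on this reading was not tested.

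At 4 h post cOS-pulse, *Bmal1*, *Nr1d1*, *Nr1d2*, *Rora* and *Clock* were all higher than in the control. The log2 ratio was 1.09 ± 0.22 for *Nr1d1* (2.13-fold), 1.07 ± 0.20 for *Bmal1* (2.11-fold), 0.93 ± 0.22 for *Rora* (1.90-fold) and 0.66 ± 0.20 for *Clock* (1.58-fold). The probes of *Nr1d2* had 1.07 ± 0.20 (A_52_P303891) and 0.88 ± 0.20 (A_55_P2148534), and *Arntl2* had -0.12 ± 0.21. Of the 7 member probes with a ratio, 3 were at least 2-fold higher (*Bmal1*, *Nr1d1* and 1 probe of *Nr1d2*) and 0 were at least 2-fold lower. Among all 23813 probes with a ratio or a bound, 11.2% were at least 2-fold higher and 8.18% at least 2-fold lower. The median log2 ratio of the 7 member probes was 0.93, against 0.17 for the 20392 probes measured on both arrays. At 1.5-fold, 6 of the 7 (all but *Arntl2*) were higher and 0 lower, against 24.7% and 16.4% of all probes. This count also depended on the scaling, and the shares of all probes were taken under the reported scaling.

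The number of members past 2-fold at 4 h depended on the scaling, since their ratios lay close to the threshold. It was 3 with quantile normalization. It was 0 where arrays were scaled on their median, on the spike-in probes or on the 75th percentile taken over detected probes alone, and also 0 without scaling. These alternatives moved the median of all probes to -0.01 with quantile normalization, 0.05 with the 75th percentile of detected probes, -0.19 with the median, -0.23 with the spike-in probes and -0.11 without scaling. Relative to the median of all measured probes, *Nr1d1* was 0.92 higher at 4 h, *Bmal1* 0.90, *Nr1d2* 0.90 and 0.71, *Rora* 0.76, *Clock* 0.49 and *Arntl2* -0.29. All 7 ratios at 4 h kept their sign under each scaling, with 0.67 to 1.07 for *Bmal1* and 0.25 to 0.66 for *Clock*. The ratio of *Clock* was less than 2 spot errors on the array median (0.30), on the spike-in probes (0.25) and without scaling (0.38). On the array median and on the spike-in probes, *Clock*, *Rora* (0.57 and 0.52) and *Nr1d2* probe A_55_P2148534 (0.52 and 0.47) also fell short of 1.5-fold. *Clock* fell short of 1.5-fold without scaling too, and with the percentile taken over detected probes alone (0.53). *Arntl2*, at -0.12 as reported, was -0.40 without scaling, -0.48 on the array median and -0.52 on the spike-in probes, the last 2 beyond 2 spot errors.

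**Figure D2:**
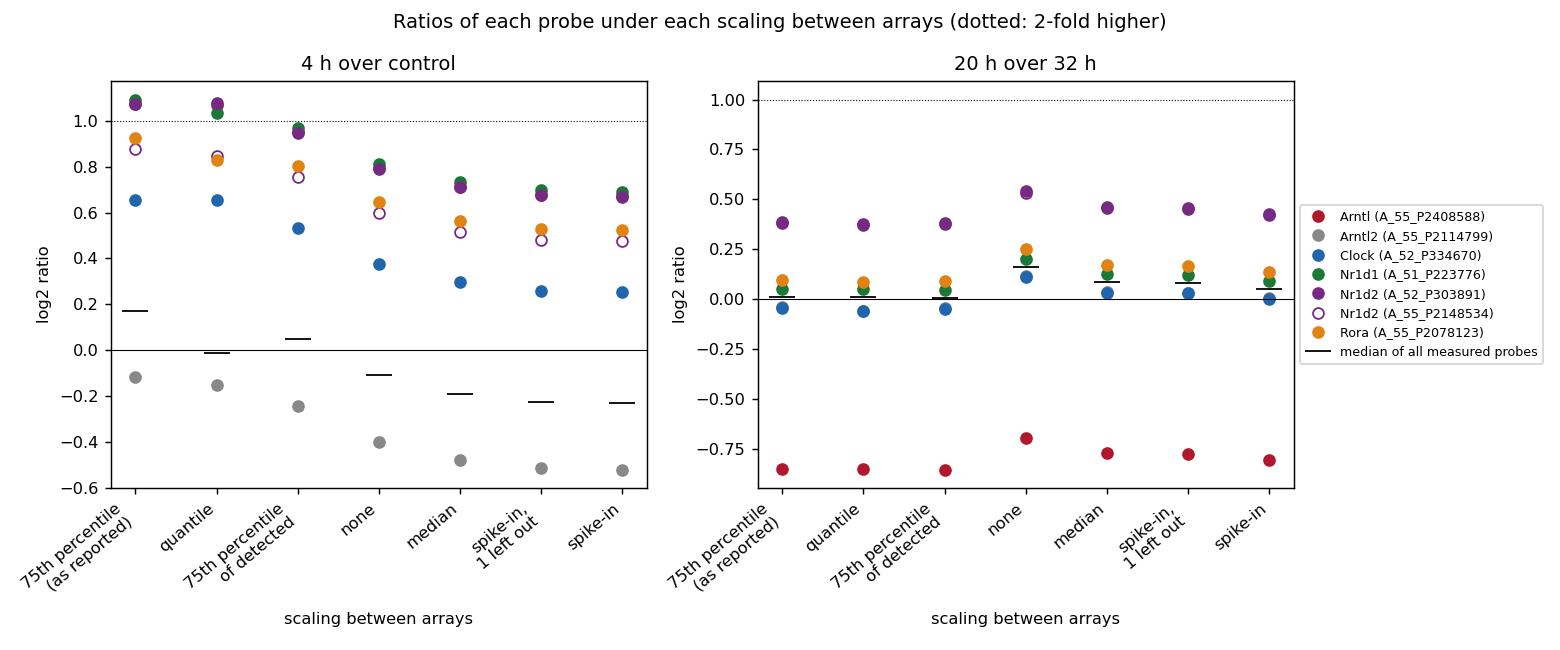
Log2 ratio of each member probe (points) and median of all measured probes (dashes) under 7 scalings between arrays, at 4 h over the control on the left and at 20 h over 32 h on the right; the dotted line marks 2-fold higher. At 4 h *Bmal1*, *Nr1d1* and 1 probe of *Nr1d2* pass 2-fold only with the first 2 scalings, while *Bmal1* lies below 0 and *Nr1d2* above 0 on the right under each one.

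At 20 h over the control, *Bmal1* was on the other side of the control and *Rora* was above it. *Bmal1* had a log2 ratio of -0.67 ± 0.21 (1.60-fold lower), and 4.31% of the 20448 measured probes had a lower ratio. *Rora* had 0.56 ± 0.22 (1.47-fold higher), and 3.82% of measured probes had a higher one. *Nr1d2* had 0.26 ± 0.20 and 0.37 ± 0.20, while *Clock* (-0.03 ± 0.20), *Arntl2* (-0.02 ± 0.21) and *Nr1d1* (-0.17 ± 0.22) differed from the control by less than the spot error. No member probe was 2-fold higher or lower, against a background of 1.37% and 3.35% of all probes. The median of the members was -0.02, against -0.0034 for all measured probes. At 1.5-fold, *Bmal1* was the 1 member lower and 0 were higher, against 7.69% and 4.51% of all probes. *Bmal1* and *Rora* kept their signs under each alternative tried, with -0.69 to -0.34 for *Bmal1* and 0.35 to 0.89 for *Rora*. The weakest of these, without scaling for *Bmal1* and with normexp background correction for *Rora*, were less than 2 spot errors. *Bmal1* fell short of 1.5-fold on the array median (-0.57), on the spike-in probes (-0.47) and without scaling (-0.34).

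At 32 h over the control, *Rora* was the member furthest from the control. It had 0.46 ± 0.23, and 6.89% of measured probes had a higher ratio. Under the alternatives tried, the ratio of *Rora* was 0.31 to 0.64, and the lowest of these was less than 2 spot errors. *Bmal1* had 0.18 ± 0.20, *Clock* 0.02 ± 0.20, *Nr1d1* -0.22 ± 0.23, *Nr1d2* -0.13 ± 0.20 and -0.01 ± 0.20, and *Arntl2* 0.02 ± 0.21. No member probe was 2-fold higher or lower, against 2.07% and 2.59% of all probes, and the median of the members was 0.02. At 1.5-fold there were also 0 in either direction, against 5.82% of all probes higher and 7.15% lower.

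**Figure D3:**
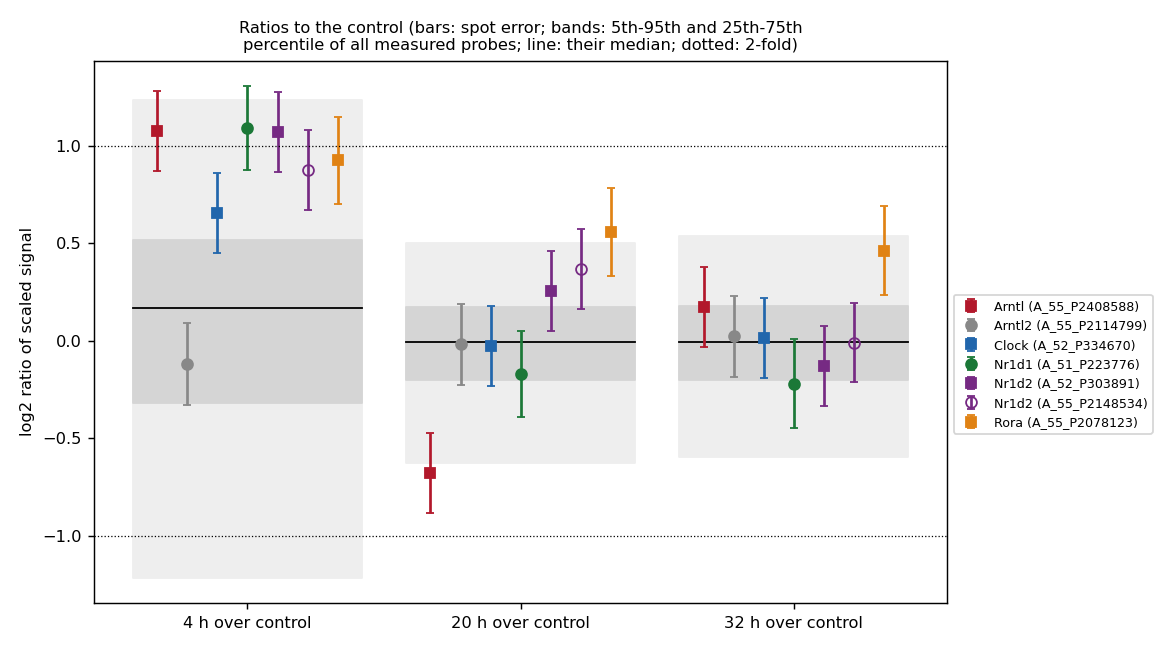
Log2 ratio of scaled signal over the control for the 7 detected member probes at 4 h, 20 h and 32 h, with bars for the spot error; grey bands give the 5th to 95th and the 25th to 75th percentile of all probes measured on both arrays, the line their median, and dotted lines 2-fold. At 4 h 6 of the 7 probes lie above the inner band, at 20 h *Bmal1* lies under the outer band and *Rora* above it, and at 32 h only *Rora* and *Nr1d1* leave the inner band.

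The comparison of 20 h with 32 h sets time points 12 h apart against each other and does not use the control. *Bmal1* was 1.80-fold lower at 20 h, with a log2 ratio of -0.85 ± 0.21, and 0.687% of the 20247 measured probes had a lower one. *Nr1d2* was higher at 20 h with both probes, 0.39 ± 0.20 and 0.38 ± 0.20 (each 1.3-fold), both less than 2 spot errors. Of measured probes, 2.35% and 2.42% had a higher ratio. *Nr1d1* (0.05 ± 0.23), *Rora* (0.09 ± 0.22), *Clock* (-0.04 ± 0.20) and *Arntl2* (-0.04 ± 0.21) differed by less than the spot error. No member probe was 2-fold higher or lower at 20 h, against 0.902% and 1.93% of all probes. The median of the members was 0.05, against 0.0083 for all measured probes. At 1.5-fold, *Bmal1* was the 1 member lower at 20 h and 0 were higher, against 3.8% and 1.87% of all probes.

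Members were also compared with each other, in 21 pairs of probes for each of the 4 comparisons. At 4 h, *Arntl2* differed from each of the other 6 probes by more than 2 spot errors, and no other pair did. At 20 h over the control, *Bmal1* differed from every other probe except that of *Nr1d1*, and *Nr1d1* differed from *Rora*. At 32 h over the control, *Nr1d1* and *Rora* were the only such pair, with a difference of -0.68 ± 0.32. At 20 h over 32 h, *Bmal1* differed from each of the other 6, by -1.24 ± 0.29 from *Nr1d2* probe A_52_P303891. *Bmal1* and *Clock*, which act as a pair, thus differed by more than 2 spot errors in the comparisons of 20 h and not at 4 h, where the difference was 0.42 ± 0.29. The pair of *Nr1d2* probes never did. These were 19 of 84 pairs, counted without a test.

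E-box-driven clock genes other than the members did not share 1 direction at 4 h. Of 11 probes with a ratio or a bound, from a list of 12 genes, 3 were at least 2-fold higher and 4 at least 2-fold lower. The median of the list was 0.39. For this list and those below, the background at 4 h was 11.2% of all probes higher, 8.18% lower and a median of 0.17. *Cry1* (1.52 ± 0.35) and *Cry2* (1.26 ± 0.20 and 1.10 ± 0.21), repressors of the BMAL1:CLOCK pair, were higher. The output factors *Dbp* (-1.34 ± 0.21 and -1.19 ± 0.21) and *Hlf* (-1.70 ± 0.21), and the cell cycle kinase *Wee1* (-1.36 ± 0.21), were lower. *Per1* had 0.48 ± 0.20 with its probe detected in the control. *Per2* was well above background at 4 h but not in the control, with a bound of 0.22 ± 0.47 (1.17-fold), less than the spot error. At 20 h over 32 h, *Dbp* had 0.66 ± 0.20 with each probe, on the other side from *Bmal1*. *Nr1d2* lay on the same side as *Dbp*, by less than 2 spot errors. *Per1* had 0.17 ± 0.20 with 1 probe. Its other probe cleared the background at 32 h alone of these time points. The bound for that probe was -1.02 ± 1.03 (2.03-fold lower at 20 h), less than the spot error.

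**Figure D4:**
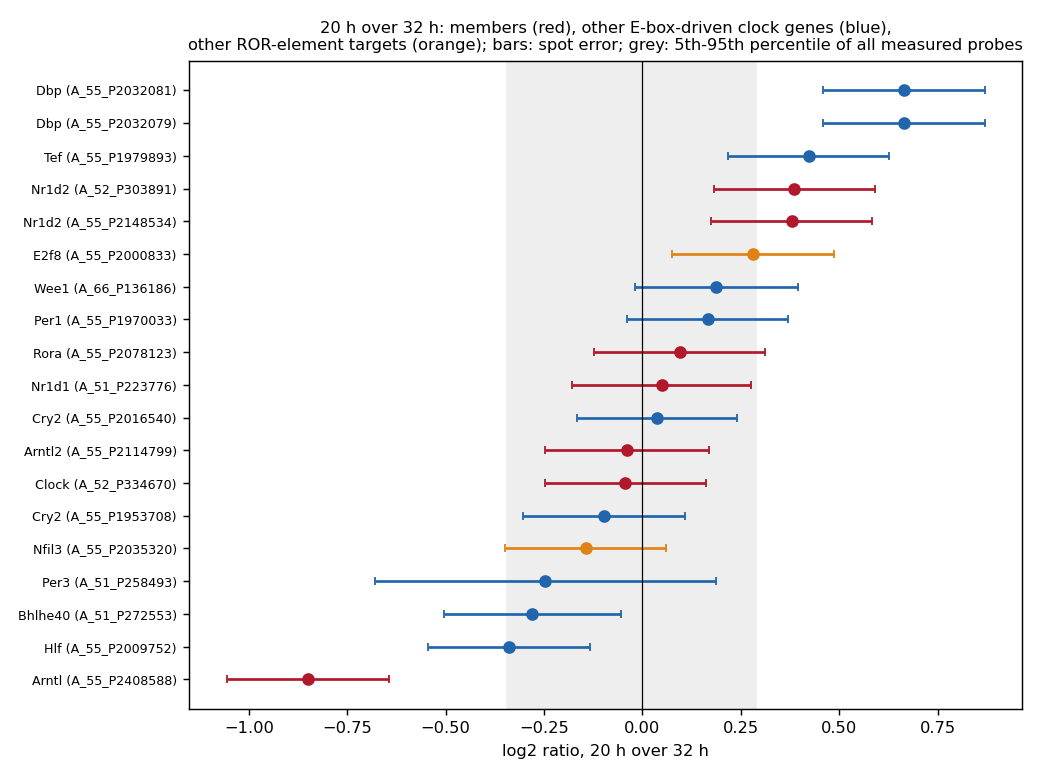
Log2 ratio of 20 h over 32 h by measured ratios, with bounds left out, for the 7 detected member probes (red), other E-box-driven clock genes (blue) and other ROR-element targets (orange), sorted, with bars for the spot error and a grey band for the 5th to 95th percentile of all measured probes. Of the ratios shown, *Bmal1* (-0.85) lies lowest, outside the band, and the *Dbp* probes (0.66), *Tef* and both *Nr1d2* probes (0.39 and 0.38) lie above the band.

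*Nfil3* and *E2f8*, the 2 genes measured on all arrays among those known to respond through ROR elements, had their highest and lowest arrays elsewhere than *Bmal1*. This list held 5 genes. Of its 3 probes with a ratio or a bound at 4 h, 0 were at least 2-fold higher and 2 lower (*E2f8* and, by a bound, *Rorb*). The median of the 2 measured ratios was -0.77. *Nfil3*, a repressor at D-boxes, had 0.61 ± 0.20 at 4 h, 1.01 ± 0.20 at 20 h and 1.15 ± 0.20 at 32 h over the control. *E2f8*, a cell cycle repressor, had -2.16 ± 0.22, -0.19 ± 0.21 and -0.47 ± 0.21. At 20 h over 32 h they lay at -0.14 and 0.28, against -0.85 for *Bmal1*. *Rorb*, another ROR subtype, was well above background only in the control and only with 1 of its 2 probes. Besides these, *Gys2*, the glycogen synthase of liver, was past 2-fold by a bound at 20 h. Its bound over the control was 1.09 ± 0.76 (2.14-fold), less than 2 spot errors.

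Cofactors of REV-ERB and ROR proteins gave 24 probes with a ratio (13 genes), of which 2 were at least 2-fold higher at 4 h and 1 lower, with a median of -0.10. *Siah2*, a ubiquitin ligase, had 1.17 ± 0.21. *Ppargc1a*, a coactivator of ROR proteins, had 1.03 ± 0.20 and 0.97 ± 0.25 with its 2 probes. *Tbl1xr1*, of the NCoR corepressor complex, had -1.18 ± 0.21 with 1 probe and -0.39 ± 0.21 with the other. At 20 h and 32 h no probe of this list was past 2-fold.

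Among enzymes that modify BMAL1 or CLOCK and their partners, 3 of 20 probes with a ratio or a bound were at least 2-fold higher at 4 h. None was 2-fold lower, and the median was 0.32. Of all probes, 11.2% were at least 2-fold higher and 8.18% lower. *Csnk2a2*, a catalytic subunit of CK2, had 1.61 ± 0.20 with 1 probe, was at least 2.82-fold higher with another, and had -0.44 ± 0.20 with the last. *Ube3a*, a ubiquitin ligase, had 1.31 ± 0.20. Of the other bHLH-PAS genes, relatives of *Bmal1* and *Clock* by their domains, 3 of 12 such probes were at least 2-fold higher at 4 h and 1 lower. *Ahr*, the aryl hydrocarbon receptor, had 1.05 ± 0.20, and *Npas4*, an immediate early gene of neurons, had -2.54 ± 0.22. The other higher probes were 1 of *Hif1a* and 1 of *Npas1*, neither well above background in the control. Their bounds were 1.36 ± 0.40 (2.56-fold) and 1.59 ± 1.45 (3.02-fold), the latter less than 2 spot errors.

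The genes whose 3 ratios to the control lay nearest to those of each member were found among 14964 probes with a gene name well above background on all 4 arrays. The measure was the distance over the 3 log2 ratios. Nearest to *Bmal1* were *Tnfaip3* (0.18), *Tmcc1* (0.21) and *Vcam1* (0.29). *Clock* had *Psma7*, *Ddx17* and *Zdhhc13* within 0.020, and *Nr1d1* had *Eif4a1*, *Tmem11* and *Purb* within 0.051. For *Nr1d2* they were *Pdhb*, *Rac1* and *Nr4a2* with 1 probe and *Lyrm1*, *Mob1a* and *Serac1* with the other, for *Rora* *Oxsr1*, *Clcn5* and *Zfp944*, and for *Arntl2* *Arl6ip4*, *Cdipt* and *Aph1a*. Probes of the members were left out of this search. The nearest probe lay further from *Bmal1* than from any other member, and all distances rest on 4 arrays.

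The 4 h array differed from the others in more than these genes. It had 59.1% of probes well above background, against 52.7% to 55.2% on the other arrays, and its 75th percentile was 0.28 lower than that of the control. All 12 probes of 10 fibroblast marker genes were well above background on every array, with a median of -0.34 at 4 h over the control and 2 of them at least 2-fold lower (*Pdgfra*, -1.55, and *Pdgfrb*, -1.35). At 20 h over the control, where *Bmal1* was low, their median was -0.22 and 3 were at least 2-fold lower (*Thy1*, -1.39, *Col1a1*, -1.06, and *Col3a1*, -1.02), and at 32 h the median was -0.14 with 0 past 2-fold. The log2 of their summed scaled signal was 10.1 in the control, 10.1 at 4 h, 10.0 at 20 h and 10.1 at 32 h. Of 14 probes of markers of other cell types, 7 were on no array well above background, including those of *Ptprc*, *Epcam* and *Cdh1*. The log2 of their summed scaled signal was -0.13 in the control and 1.34 at 4 h, against 0.19 at 20 h and 0.11 at 32 h. At 4 h over the control, *Cd68* had 2.08 ± 0.21 with 1 probe and a bound of 0.99 ± 0.81 with the other. The scaled level of the first of these was -1.33 in the control and 0.75 at 4 h. *Cdh5* had 1.87 ± 0.30, *Pecam1* 0.71 ± 0.27 and *Tubb3* -0.01 ± 0.22. The part of these differences in the 4 h and 20 h values of the clock genes was not tested. No spot of a member probe was flagged or saturated on any array.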

How the data were processed

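The authors hybridized Cy3-labelled RNA of 4 cultures to Agilent 4x44K mouse arrays. Per the submitters' notes the spots were read with Agilent Feature Extraction 10.7.3.1. The authors deposited the processed signal intensity of each spot, with background subtracted, and a table of the same intensity divided by 1 constant per array, which was checked over all spots. From the deposited intensity, log2 was averaged over the unflagged spots of a probe and the 75th percentile over 39429 probes was subtracted. A ratio was taken where both arrays were well above background in at least 50% of spots, and a bound where 1 was. For a bound, the dim array was given its own signal or its detection limit, whichever was higher. Probe positions are those of the annotation (mm9), and 8 of the 11 member probes matched a RefSeq transcript by accession. The members, lists and tests were chosen with earlier results of these data known. All member probes were named. From each list, genes with a measured 2-fold change in any comparison were named, at most 6, besides *Per1*, *Per2*, *Cry1*, *Dbp*, *Nfil3* and *Rorb*. *Gys2*, *Hif1a* and *Npas1*, past 2-fold by a bound only, were named as well, though not every such gene was. List medians were taken over measured ratios, and 2 list genes are left out as withheld. The 3 nearest genes were named for each member probe. Differences were read against the spot error, and 2 errors marked neighbors that differed. The scaling on the 75th percentile and the 2-fold call were tested on simulated data, and the other steps were not. Python 3.11.15, numpy 2.4.6 and pandas 2.3.3 were used, also for quantile normalization, with limma 3.58.1 in R 4.3.3 for normexp background correction.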

Additional observations from a re-analysis of the deposited data

How the results depend on the processing

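With 1 array per condition no array could be left out. No paired analysis was possible because each condition has 1 array and the shared number 1 is only a name. Of the counts of member probes past the threshold, that of probes higher at 4 h over the control moved most. Against 3 as reported, it was 0 with median scaling, with the 75th percentile taken over detected probes alone, with spike-in scaling, with spike-in scaling that leaves out the most deviant of its 8 probes (added after the data were seen), without scaling, and at 3-fold. It was 1 with normexp background correction (offset 50), 5 with the flag for positive and significant signals and with no detection filter, which added *Npas2* and 1 probe of *Arntl2*, and 6 at 1.5-fold. At 1.5-fold, the count of lower probes was 1 instead of 0 at 20 h over the control and 1 instead of 0 at 20 h over 32 h, both times *Bmal1*. The other 111 counts were unchanged within 1.5 times. Of the values of single ratios, 301 moved by less than the spot error and 35 by more. Signs changed only for ratios reported as -0.17 to 0.05, which were those of *Clock*, *Nr1d1* and *Arntl2* at 20 h over the control and over 32 h and of *Nr1d2* at 32 h over the control. For *Bmal1*, the 20 h over 32 h ratio stayed between -0.86 and -0.70. Among probes with 10 spots, the median SD of single-spot log2 ratios was 0.046 to 0.055. The spot error of the member ratios, 0.20 to 0.23, was larger than these medians, and the spread between cultures is unknown.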
